A study of Mus musculus with 22 samples.

Results

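Bcl6, Cxcr5, Il21, Maf, Sostdc1, Ascl2, Tox and Tox2 are 8 genes of the T follicular helper (Tfh) fate, taken by name from the 24911 genes of each deposited table, of which 20674 are protein-coding. Their levels were read in all 22 mouse RNA-seq libraries, with most weight on 9 libraries of CD4 T cells. The T-cell groups were CD4+ T cells activated with concanavalin A (ConA), T follicular regulatory (Tfr) cells sorted as CD4+CD44+CXCR5+PD1+CD25+, Tfh cells, activated non-Tfh cells sorted as CD4+CD44+CXCR5-PD1-CD25-, and total CD4+ T cells. Tfr, Tfh, non-Tfh and CD4+ cells each had 1 library marked MUT and 1 unmarked library; the labels do not say what is mutated, give no gate for Tfh cells and give no strain, age or sex for the T cells. The other libraries were 6 activated B-cell cultures (aBCD180, aCD40+IL4, LPS alone, and LPS with IL4, with IL21 or with a-d-dextran), splenic B cells from C57BL/6J mice, CH12 B lymphoma cells of the single clone bc5, back skin, basophils, and the brain regions sensorimotor cortex, medulla oblongata and putamen. ConA is a plant lectin that activates T cells in culture, and LPS is a bacterial lipid that activates B cells through a Toll-like receptor.

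Tfh cells are CD4 T cells that enter B-cell follicles and help B cells in germinal centres. Their programme depends on the transcriptional repressor BCL6, and the chemokine receptor CXCR5 leads them to the follicle. They secrete IL-21, which acts on germinal centre B cells and plasma cell precursors. Tfr cells share CXCR5 and BCL6 with them but carry the regulatory T-cell factor FOXP3 and restrain the germinal centre reaction.

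Libraries held between 30.8 M and 147.9 M expected counts (M, 1000000 counts), with a median of 46.2 M. All 8 T-cell markers tested were above 1 TPM, a transcript level scaled for library size and transcript length, in each of the 9 T-cell libraries. Foxp3 stood at 579.3 and 433.1 TPM in the Tfr MUT and Tfr libraries, against 69.18 and 142.83 TPM in Tfh MUT and Tfh, 17.77 and 9.19 TPM in the non-Tfh pair, and 2.9 and 2.6 TPM in the CD4+ pair. The sorted Tfr libraries therefore held the highest Foxp3, and both Tfh libraries held more than the non-Tfh pair. Summed over 10 B-cell markers, the level was 146.6 and 519.8 TPM in Tfr MUT and Tfr, 724.1 and 184.1 TPM in Tfh MUT and Tfh, and 95.5 to 122.3 TPM in the other unstimulated or in vivo activated libraries, against 13312.1 TPM in splenic B cells. Tfh MUT and Tfr thus carried more B-cell transcripts than the other libraries sorted from CD4 T cells, and no B-cell marker of the 10 was at 0 in any T-cell library. Of 7 myeloid markers the sum was 68.8 and 86.7 TPM in Tfr MUT and Tfr and 119.1 and 96.4 TPM in Tfh MUT and Tfh, against 4.8 and 7.5 TPM in non-Tfh MUT and non-Tfh, 5.7 and 7.2 TPM in CD4+ MUT and CD4+, and 211.1 TPM in splenic B cells. The gene Cebpa alone gave 65.45 and 78.12 TPM in Tfr MUT and Tfr and 109.65 and 92.66 TPM in Tfh MUT and Tfh, against 0.66 and 2.67 TPM in non-Tfh MUT and non-Tfh. The other 6 myeloid markers were at most 4.61 TPM in every T-cell library, and Cd14 was at 0 in Tfh, non-Tfh MUT and both CD4+ libraries. The effective gene lengths in the ConA, splenic B, LPS+IL4 B and CH12 tables were computed with another fixed offset than in the other 18 tables.

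**Figure D1:**
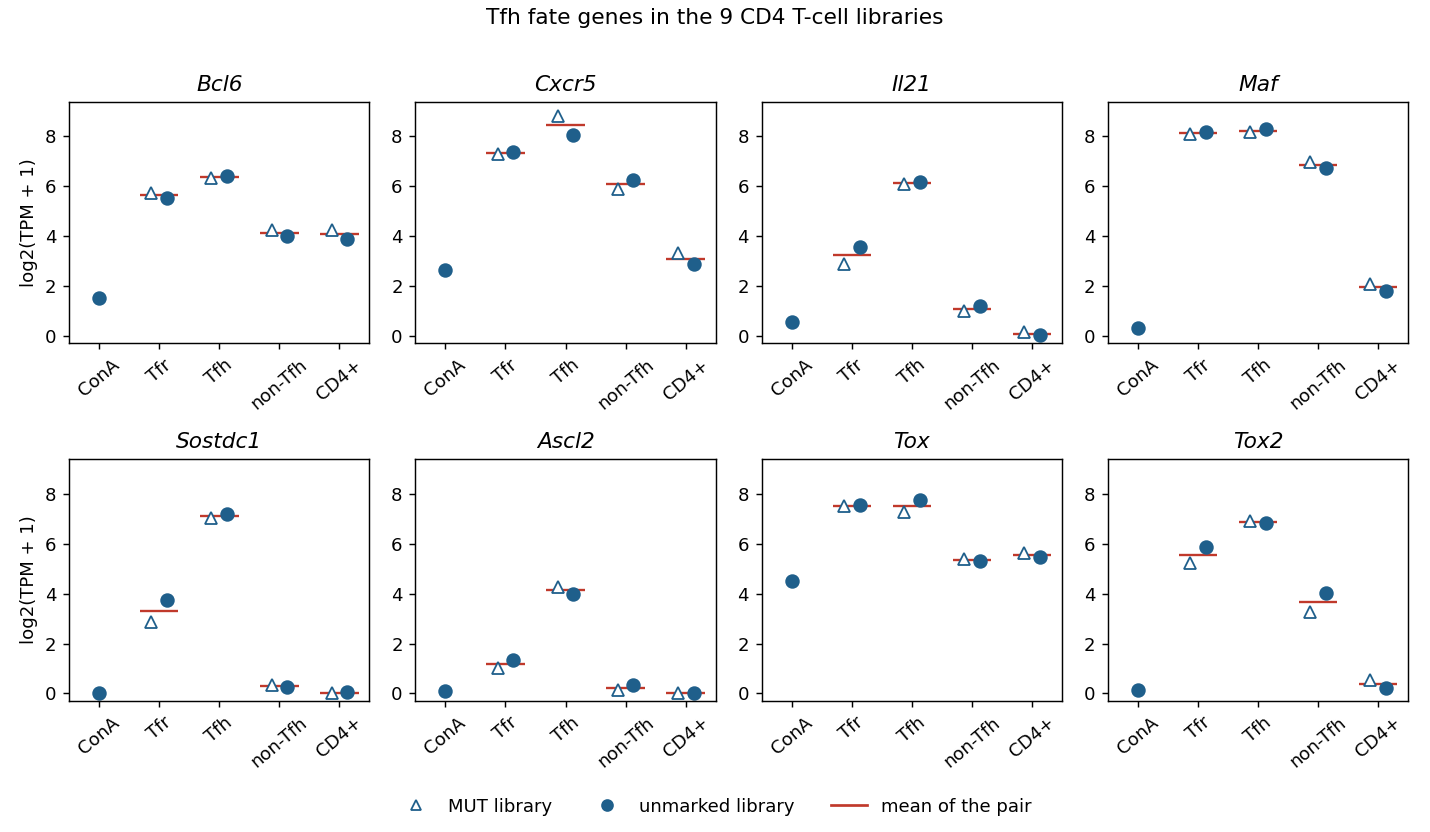
Level of each of the 8 genes in the 9 CD4 T-cell libraries as log2(TPM + 1), with open triangles for MUT libraries, filled circles for unmarked libraries and a red line at the mean of each pair. Tfh libraries are highest for Bcl6, Cxcr5, Il21, Sostdc1, Ascl2 and Tox2, while Tfr and Tfh points lie close together for Maf and overlap for Tox.

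Bcl6 encodes the zinc-finger repressor that sets the Tfh fate, and lies at chr16:23965050-23988866 (mm10, as for all gene positions here). It stood at 51.92 and 45.65 TPM in Tfr MUT and Tfr, 80.48 and 84.81 TPM in Tfh MUT and Tfh, 18.05 and 14.87 TPM in non-Tfh MUT and non-Tfh, and 18.02 and 13.89 TPM in CD4+ MUT and CD4+. The order was Tfh, then Tfr, then non-Tfh and CD4+ cells, whose ranges overlapped. Bcl6 was higher in Tfh than in non-Tfh cells by 2.21 ± 0.16 on the log2 scale (SE, edgeR adjusted p = 0.00487).

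Maf (chr8:115703253-115706894) encodes the leucine-zipper factor c-MAF, which promotes Il21 expression in mouse T cells. It stood at 270.96 and 285.01 TPM in Tfr MUT and Tfr, 289.1 and 312.76 TPM in Tfh MUT and Tfh, 125.53 and 105.19 TPM in non-Tfh MUT and non-Tfh, and 3.26 and 2.48 TPM in CD4+ MUT and CD4+. Of the 8 genes it had the smallest fitted difference between Tfh and non-Tfh cells, 1.24 ± 0.16 (log2, SE, adjusted p = 0.0144). Its mean in non-Tfh cells was 38.3% of that in Tfh cells.

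Ascl2 (chr7:142966822-142969264) encodes a basic helix-loop-helix factor that raises Cxcr5 expression in mouse T cells. Its level was 1.01 and 1.56 TPM in Tfr MUT and Tfr, 18.39 and 14.98 TPM in Tfh MUT and Tfh, and 0.09 and 0.25 TPM in non-Tfh MUT and non-Tfh, and no read was counted in either CD4+ library. The Tfh pair lay above every other T-cell library, and the Tfr mean was 7.7% of the Tfh mean. Ascl2 was higher in Tfh than in non-Tfh cells by 6.54 ± 0.60 (log2, SE, adjusted p = 0.0112). Against a floor of 3 counts over the CD4+ pair, it was at least 548.4-fold higher in Tfh and at least 39.4-fold higher in Tfr cells, per total count.

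Tox and Tox2 encode related HMG-box DNA-binding proteins. Tox (chr4:6686353-6991557) stood at 181.51 and 186.33 TPM in Tfr MUT and Tfr, 154.9 and 217.55 TPM in Tfh MUT and Tfh, 40.8 and 38.96 TPM in non-Tfh MUT and non-Tfh, and 48.27 and 43.83 TPM in CD4+ MUT and CD4+. The Tfr values lay inside the Tfh range, and the non-Tfh pair lay below the CD4+ pair. Tox2 (chr2:163203058-163324172) stood at 36.88 and 58.07 TPM in Tfr MUT and Tfr, 120.55 and 113.98 TPM in Tfh MUT and Tfh, 8.64 and 15.35 TPM in non-Tfh MUT and non-Tfh, and 0.46 and 0.15 TPM in CD4+ MUT and CD4+. Its order was Tfh, Tfr, non-Tfh and CD4+, and no neighbouring ranges overlapped. Both were higher in Tfh than in non-Tfh cells, Tox by 2.06 ± 0.20 (log2, SE, adjusted p = 0.00818) and Tox2 by 3.16 ± 0.43 (log2, SE, adjusted p = 0.0156).

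Cxcr5 (chr9:44511787-44526444) encodes the receptor for CXCL13, the follicular chemokine. Its protein was part of the gates for Tfr and non-Tfh cells, so its differences between sorted populations describe the sort. It stood at 155.0 and 166.53 TPM in Tfr MUT and Tfr, 451.71 and 268.16 TPM in Tfh MUT and Tfh, 57.94 and 75.93 TPM in non-Tfh MUT and non-Tfh, and 9.08 and 6.29 TPM in CD4+ MUT and CD4+. The non-Tfh cells, gated as lacking the protein, thus held more Cxcr5 RNA than total CD4+ cells. Splenic B cells held 412.57 TPM of Cxcr5. Scaled to the summed B-cell markers, this comes to 4.54 and 16.11 TPM in Tfr MUT and Tfr, and 22.44 and 5.71 TPM in Tfh MUT and Tfh. It comes to 3.79 and 3.6 TPM in non-Tfh MUT and non-Tfh, and 3.12 and 2.96 TPM in CD4+ MUT and CD4+. These scaled amounts were below the measured Cxcr5 level in each of those libraries, by the least in the CD4+ pair. The scaling assumes the splenic ratio of Cxcr5 to B-cell markers, and the part of B-cell transcripts in the Cxcr5 levels was not tested.

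**Figure D2:**
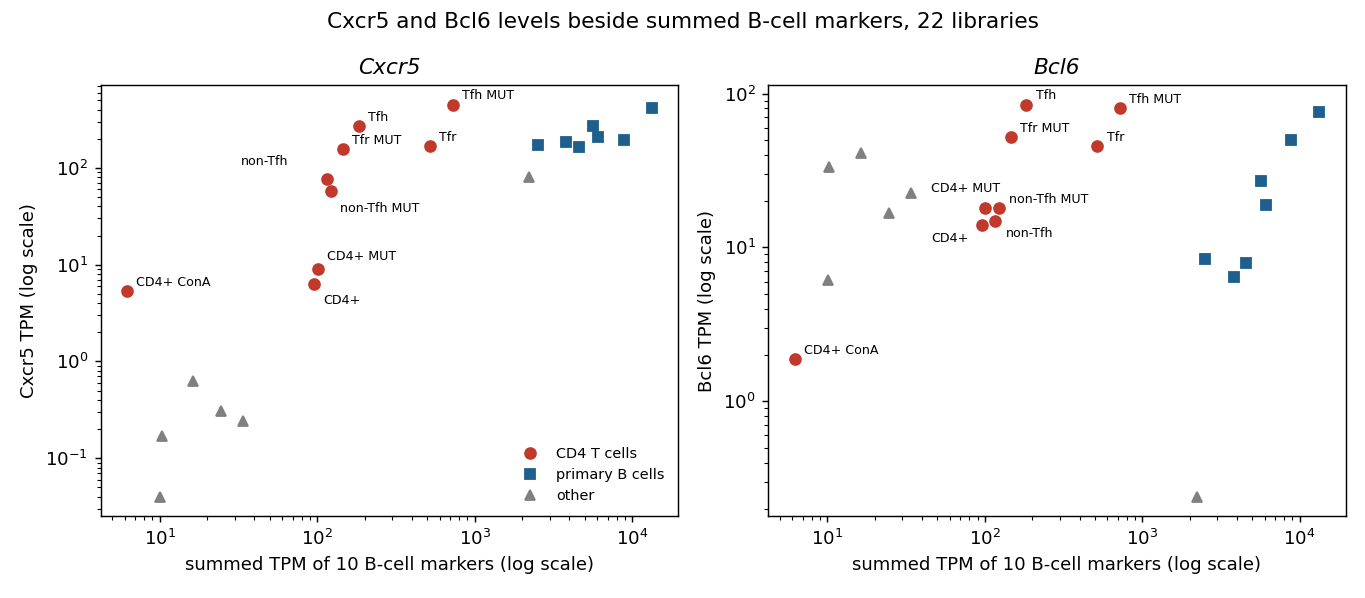
Cxcr5 (left) and Bcl6 (right) TPM against the summed TPM of 10 B-cell markers in the 22 libraries, both axes on log scales, with red circles for CD4 T cells, blue squares for primary B cells and grey triangles for the other libraries. Tfh MUT has the highest B-cell marker sum of the T-cell libraries, 724.1 TPM, and the highest Cxcr5, 451.71 TPM.

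Il21 and Sostdc1 encode secreted products. Il21 (chr3:37222759-37232636), the cytokine of Tfh help, stood at 6.45 and 10.86 TPM in Tfr MUT and Tfr, 67.04 and 70.46 TPM in Tfh MUT and Tfh, 1.01 and 1.26 TPM in non-Tfh MUT and non-Tfh, and 0.11 and 0.01 TPM in CD4+ MUT and CD4+. Sostdc1 (chr12:36314169-36318452), which encodes a secreted antagonist of BMP and WNT signals, stood at 6.3 and 12.36 TPM in Tfr MUT and Tfr, 129.43 and 145.97 TPM in Tfh MUT and Tfh, 0.26 and 0.21 TPM in non-Tfh MUT and non-Tfh, and 0 and 0.03 TPM in CD4+ MUT and CD4+. In TPM, a scale that compares genes, Sostdc1 RNA was higher than Il21 and Bcl6 RNA in both Tfh libraries, yet in non-Tfh cells it was lower than both. Sostdc1 was higher in Tfh than in non-Tfh cells by 8.96 ± 0.38 (log2, SE, adjusted p = 0.00454) and Il21 by 5.77 ± 0.53 (log2, SE, adjusted p = 0.00769). Only 2 Sostdc1 reads were counted over the CD4+ pair, so the ratio of Tfh to CD4+ cells per total count was 7303.2 with a 95% counting interval of 2021.0 to 60315.9, and that of Tfr to CD4+ cells was 456.2 (125.8 to 3774.7). These intervals cover counting error only.

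Tfh cells were set against activated non-Tfh cells, which are CD44+ and lack CXCR5, PD1 and CD25 by their gate. All 8 genes rose in Tfh cells, where 4.03% of the 13064 genes tested rose, and their median log2 fold change was 2.69, beside 0.02 over all genes tested. CXCR5 was part of the non-Tfh gate, and Ascl2 and Sostdc1 passed the filter on low counts through the follicular libraries. The count and the median, which include these genes, are therefore a description. Each population was 1 MUT and 1 unmarked library, the labels do not say that libraries came from separate animals, so the p-values reflect the spread among these libraries alone, and that spread may be technical. All 8 calls were lost when either non-Tfh MUT or non-Tfh was left out, where edgeR put 0 of all genes past the threshold; at an unadjusted p under 0.05 there were 1601 genes without non-Tfh MUT and 2255 without non-Tfh, all 8 members among them in both fits. The 7 myeloid markers summed to 119.1 and 96.4 TPM in Tfh MUT and Tfh, against 4.8 and 7.5 TPM in non-Tfh MUT and non-Tfh, mostly through Cebpa, and the part of these and of the B-cell markers in the result was not tested. In these bulk libraries fewer cells of a type and less RNA per cell cannot be told apart.

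Against total CD4+ cells, the 8 genes rose in both follicular populations, where 16.8% of genes tested rose in Tfr and 15.3% in Tfh cells. The fitted log2 fold change in Tfr cells was 6.30 ± 0.20 for Maf, 7.07 ± 0.57 for Tox2, 1.31 ± 0.16 for Bcl6 and 1.69 ± 0.20 for Tox (SE). In Tfh cells it was 6.44 ± 0.20 for Maf, 8.44 ± 0.59 for Tox2, 2.14 ± 0.16 for Bcl6 and 1.73 ± 0.20 for Tox (SE). Both comparisons share the CD4+ pair. Over that pair Ascl2 had 0 reads and Sostdc1 had 2, and both genes passed the filter on low counts through the follicular libraries. CXCR5 was part of the Tfr gate. The counts of members called, with all libraries and with 1 left out, include these genes and are therefore a description. All 8 genes stayed past the threshold in each of the 8 fits without 1 library. Bcl6 and Tox had the smallest differences from total CD4+ cells, which held both above 13 TPM. Whether that level bears on the size of the difference was not tested.

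Tfr cells differed among the 8 genes in how near they came to Tfh cells. The Tfr mean was 98.8% of the Tfh mean for Tox, 92.4% for Maf, 59.0% for Bcl6, 44.7% for Cxcr5, 40.5% for Tox2, 12.6% for Il21, 7.7% for Ascl2 and 6.8% for Sostdc1. Sostdc1 fell in Tfr relative to Tfh cells, by 3.97 ± 0.28 on the log2 scale (SE, edgeR adjusted p = 0.0150). The other 7 genes did not pass the test, where 0.291% of genes tested fell and 0.107% rose. Ascl2 differed by -3.78 ± 0.51 (adjusted p = 0.0796) and Il21 by -3.05 ± 0.46 (adjusted p = 0.0721). The fitted difference was -0.83 ± 0.16 for Bcl6 (adjusted p = 0.123), -1.16 ± 0.28 for Cxcr5 (adjusted p = 0.195) and -1.36 ± 0.40 for Tox2 (adjusted p = 0.282). The 95% interval of the difference ran from -0.53 to 0.25 for Maf and from -0.50 to 0.43 for Tox, so log2 differences of those sizes remain within error. The ranges of the Tfr and Tfh pairs did not overlap for any gene but Tox. That is a description of pairs and no test, and the share of all genes without overlap was not counted.

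The Sostdc1 call was lost without Tfr MUT (adjusted p = 0.101), Tfr (0.0594), non-Tfh MUT (0.137) or non-Tfh (0.135), while its log2 difference stayed between -4.30 and -3.66 in all fits without 1 library. DESeq2 called 5 of the 8 genes lower in Tfr cells, adding Bcl6, Cxcr5, Il21 and Ascl2. It also called more of all genes in this comparison, 621 against 52 in edgeR. The regulatory marker sum of 7 genes was 1739.3 and 1427.9 TPM in Tfr MUT and Tfr, against 311.5 and 501.5 TPM in Tfh MUT and Tfh, and the 10 B-cell markers summed to 146.6 and 519.8 TPM in Tfr MUT and Tfr, against 724.1 and 184.1 TPM in Tfh MUT and Tfh. Their part in these differences was not tested. CD25, the product of Il2ra, was part of the Tfr gate, so the difference in regulatory markers may in part describe the sort. Il2ra stood at 212.05 and 177.35 TPM in Tfr MUT and Tfr, against 2.81 and 6.47 TPM in Tfh MUT and Tfh.

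Relative to non-Tfh cells, 7 of the 8 genes rose in Tfr cells, where 7.88% of genes tested rose. Here too, Ascl2 and Sostdc1 passed the filter on low counts through the follicular libraries. The counts that include them, and the Sostdc1 call with a library left out, are therefore a description. The log2 fold change was 4.99 ± 0.34 for Sostdc1, 2.75 ± 0.54 for Ascl2, 2.72 ± 0.47 for Il21 and 2.03 ± 0.20 for Tox (SE). It was 1.8 ± 0.41 for Tox2, 1.38 ± 0.16 for Bcl6 and 1.09 ± 0.16 for Maf, and the gated Cxcr5 did not pass (1.06 ± 0.28, adjusted p = 0.058). The count was 4 without Tfr and 1 without either non-Tfh library; that gene was Sostdc1 in both cases. Sostdc1, Ascl2 and Il21, which were lowest in Tfr relative to Tfh cells, were thus still above their non-Tfh levels in both Tfr libraries.

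Activated non-Tfh cells were in turn compared with total CD4+ cells. Maf, Tox2, Il21 and Cxcr5 rose, 4 of the 8 genes, where 3.23% of genes tested rose. Maf rose by 5.21 ± 0.19, Tox2 by 5.28 ± 0.55, Il21 by 4.42 ± 0.69 and the gated Cxcr5 by 3.04 ± 0.31 (log2, SE). Bcl6 and Tox did not pass, with 95% intervals from -0.45 to 0.31 for Bcl6 and from -0.80 to 0.13 for Tox. Sostdc1 (adjusted p = 0.052) and Ascl2 (adjusted p = 0.0717) did not pass either. Counted over the pairs, Sostdc1 had 26 reads in non-Tfh and 2 in CD4+ cells, a ratio of 12.8 per total count with a 95% counting interval of 3.2 to 111.5. Ascl2 had 15 reads in non-Tfh and 0 in CD4+ cells, at least 4.9-fold higher against the floor of 3. The number called was 2 without non-Tfh MUT, 1 without non-Tfh and 2 without CD4+; Maf passed in all 8 fits without 1 library.

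**Figure D3:**
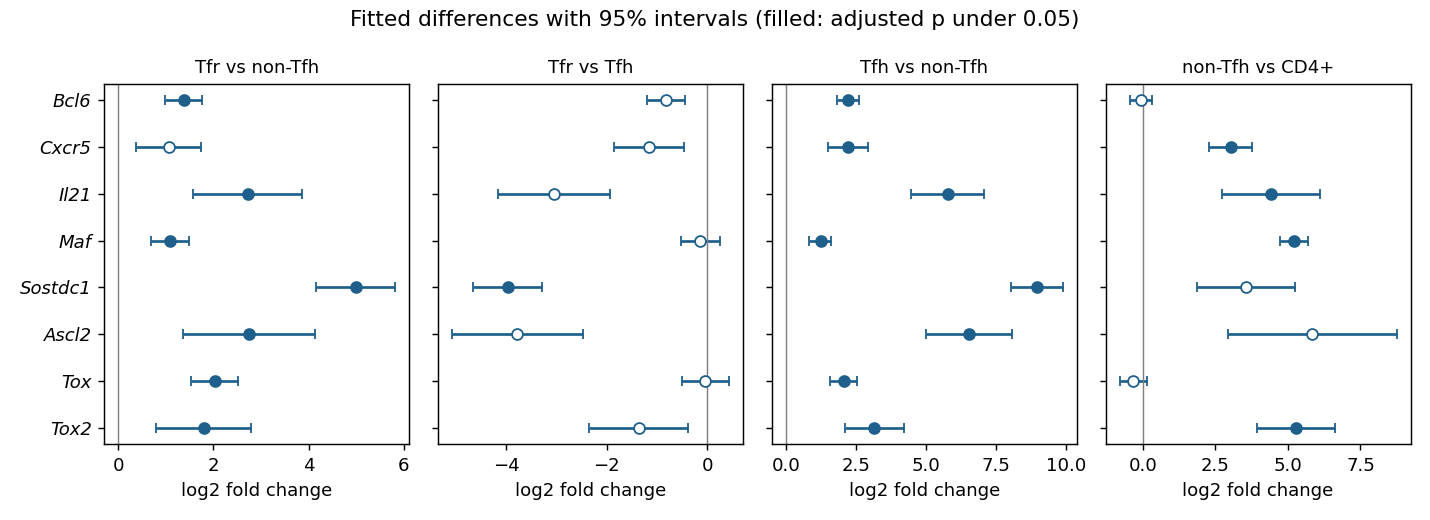
Fitted log2 fold changes of the 8 genes with their 95% intervals in 4 comparisons, filled where the edgeR adjusted p is under 0.05; the horizontal scale differs between panels. All 8 points are filled in the panel of Tfh vs non-Tfh and 1, Sostdc1, in the panel of Tfr vs Tfh, and the Ascl2 estimate against CD4+ cells rests on a group with no reads.

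MUT libraries were compared with unmarked ones across the 4 populations. No member passed the test, and 0.0% of the 13064 genes tested did in edgeR, with 0 members and 192 genes at an unadjusted p under 0.05. DESeq2 called 2 genes and limma 0. The log2 difference between MUT and unmarked libraries ranged from -0.41 ± 0.23 for Sostdc1 to 0.22 ± 0.11 for Bcl6 (SE). Within Tfh cells Cxcr5 stood at 451.71 TPM in Tfh MUT and 268.16 TPM in Tfh, and the B-cell markers at 724.1 and 184.1 TPM in the same libraries. A test of whether the MUT difference in Tfh cells departs from that in the other 3 populations called 0 members and 0.731% of 13534 genes. Tox (-0.64 ± 0.17, adjusted p = 0.118) and Bcl6 (-0.48 ± 0.17, adjusted p = 0.164) were the members at an unadjusted p under 0.05 there. That test rests on 1 Tfh MUT library, and its calls changed with the library left out, for members and for all genes. In those fits the difference ranged from -0.63 to -0.53 for Tox, from -0.47 to -0.37 for Bcl6 and from 0.48 to 0.97 for Cxcr5.

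ConA-activated CD4+ cells had 1 library and were compared by size, with no test. A gene counted as different when log2(TPM + 1) differed by at least 2 from each library compared, with at least 10 TPM on the higher side. Bcl6 stood at 1.88 TPM in ConA cells, against 18.02 and 13.89 TPM in CD4+ MUT and CD4+, and was the only member past that size against total CD4+ cells, where 1.67% of genes were lower. Maf stood at 0.24 TPM in ConA cells, Cxcr5 at 5.29 TPM, Tox at 21.49 TPM and Il21 at 0.47 TPM. Tox2 (0.09 TPM), Ascl2 (0.07 TPM) and Sostdc1 (0.02 TPM) were near 0 in ConA cells. Against the 6 in vivo activated libraries, Bcl6, Cxcr5 and Maf were lower in ConA cells by that rule, where 0.894% of genes were lower. Tox2 met the size but not the level in the lowest library, 8.64 TPM in non-Tfh MUT. The ConA table was made with another effective-length offset than the other T-cell tables. On TMM-scaled CPM (counts per 1000000), which uses no transcript length, the same members passed, Bcl6 against CD4+ cells and Bcl6, Cxcr5 and Maf against the in vivo activated cells. That scale also differs by its TMM size factors and by the same cutoffs being set on CPM in place of TPM. Over all genes the split moved, and which of these differences moved it was not tested. Against CD4+ cells, 826 genes were higher and 182 lower on that scale, and 454 higher and 329 lower in TPM. Against the in vivo activated cells, 251 were higher and 97 lower on that scale, and 96 higher and 177 lower in TPM.

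Other genes of the Tfh programme were counted by role in Tfh relative to non-Tfh cells. Of 15 receptors and ligands of Tfh cells, 7 rose, 0 fell and 8 did not pass, with a median log2 fold change of 1.03, where 4.03% of all genes tested rose, 2.56% fell and the median was 0.02. The inhibitory receptor Tigit rose by 4.45 ± 0.30, the CD30 ligand gene Tnfsf8 by 1.73 ± 0.27 and Cd200 by 1.41 ± 0.28, besides Pdcd1, whose protein PD1 was gated. Of 12 transcription factors that promote the fate, 3 rose and 1 fell, with a median of 0.62: Egr2 rose by 1.84 ± 0.25, Batf by 1.32 ± 0.24 and Nfatc1 by 0.99 ± 0.13, and Lef1 fell by 1.48. Lef1 is a TCF-family factor, and it stood at 79.51 and 64.37 TPM in Tfh MUT and Tfh, against 179.68 and 203.03 TPM in non-Tfh MUT and non-Tfh. These lists were compiled with earlier results of these data known.

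Of 13 genes that oppose the Tfh fate, 0 rose, 4 fell and 9 did not pass in Tfh relative to non-Tfh cells (median -0.51), where 2.56% of all genes tested fell. Among those that fell were Klf2 (-1.57 ± 0.20), which drives egress receptors, Foxp1 (-1.02 ± 0.19) and Runx3 (-0.51 ± 0.11). Prdm1, whose product BLIMP-1 and BCL6 repress each other, stood at 10.36 and 18.63 TPM in Tfh MUT and Tfh, against 5.99 and 6.1 TPM in non-Tfh MUT and non-Tfh, and did not pass (1.07 ± 0.30, adjusted p = 0.0918). Of 11 genes repressed by or with Bcl6, 5 fell, 1 rose and 5 did not pass (median -0.31). Il7r, the IL-7 receptor chain, fell by 2.28 and the lymph node homing receptor gene Ccr7 by 1.87 on the log2 scale, while the chemokine receptor gene Cxcr4 rose by 2.10 ± 0.35. Without non-Tfh MUT or non-Tfh, none of these list genes was called, as for the members. Of the 8 fits that leave out 1 library, Batf and Foxp1 were called in 4 and Runx3 in 1.

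Between Tfr and Tfh cells, 0.291% of genes tested fell and 0.107% rose. Of the 15 receptors and ligands, Cd40lg (-1.73 ± 0.18), the CD40 ligand of T-cell help, and Slamf6 (-1.28 ± 0.15) fell in Tfr cells. Tcf7, a TCF-family factor upstream of Bcl6 in mouse T cells, fell by 1.64, the 1 call among 12 promoting factors. It stood at 337.7 and 391.61 TPM in Tfr MUT and Tfr, against 1062.28 and 1201.18 TPM in Tfh MUT and Tfh. Klf2 fell by 1.63, the 1 call among 13 opposing genes. Among the 11 genes repressed by or with Bcl6, the chemokine receptor gene Ccr6 rose by 2.08 ± 0.21 and S1pr1, the egress receptor, fell by 1.59. These 6 list genes kept their direction with 1 library left out, but each was called in only 2 of the 8 such fits, those without Tfh MUT or without Tfh. In edgeR, 0 of all genes were called without Tfr MUT, non-Tfh MUT or non-Tfh (1276, 1047 and 1051 at an unadjusted p under 0.05), 1 without Tfr and 458 without Tfh.

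B cells share some of these genes with Tfh cells, and the 9 CD4 T libraries were set against 7 primary B libraries. Il21 (9.45 ± 1.93), Tox2 (8.20 ± 1.60), Tox (6.85 ± 0.76) and Maf (6.66 ± 1.49) were higher in T cells (log2, SE), 4 of 6 members tested, where 22.5% of 12437 genes were higher. Ascl2 and Sostdc1 did not pass the filter on low counts. Il21 had at most 7 reads in any primary B library and passed that filter through the T-cell libraries. Its call, and the count that includes it, are therefore a description. Bcl6 and Cxcr5 did not pass the test, with 95% intervals from -1.01 to 1.60 for Bcl6 and from -2.42 to 0.49 for Cxcr5. The 9 T libraries are 5 different cell populations, so the spread includes differences between them.

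Within B cells, Bcl6 ranged from 6.39 to 50.01 TPM over the 6 activated cultures (median 13.58), highest in aCD40+IL4 B cells, against 75.97 TPM in splenic B cells. Cxcr5 ranged from 162.81 to 268.2 TPM in the cultures (median 188.54) and stood at 412.57 TPM in splenic B cells. The activated cultures thus lay below splenic B cells for both genes. Maf was at most 1.36 TPM in the cultures and 7.14 TPM in splenic B cells, and the other members were at most 2.28 TPM in any primary B library. CH12 cells held 80.78 TPM of Cxcr5 and 0.24 TPM of Bcl6.

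**Figure D4:**
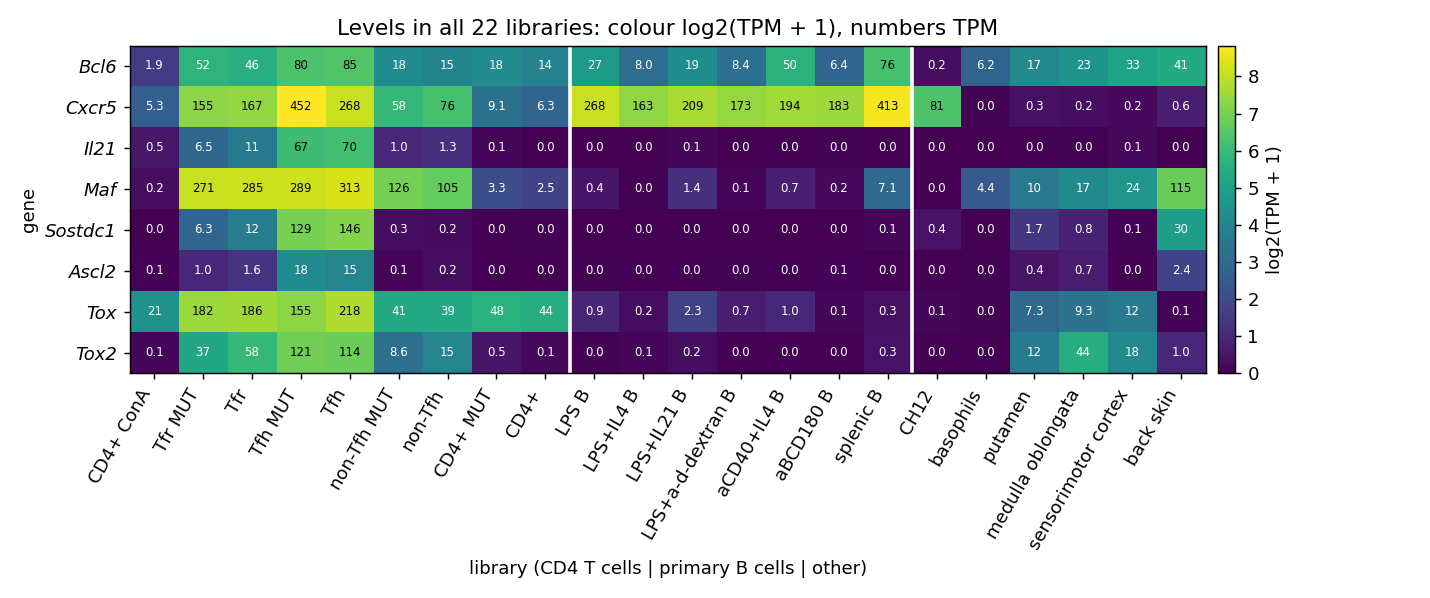
TPM of the 8 genes (numbers) in all 22 libraries, coloured by log2(TPM + 1), with white lines between CD4 T cells, primary B cells and the other libraries. Cxcr5 is at least 162.81 TPM in every primary B library, and Sostdc1, Ascl2 and Il21 reach 6 TPM only in follicular T cells and, for Sostdc1, back skin.

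Outside lymphocytes, Sostdc1 stood at 29.53 TPM and Maf at 114.92 TPM in back skin, above the levels in every primary B library. Tox2 stood at 11.77 to 43.64 TPM in the 3 brain regions, highest in medulla oblongata, and Bcl6 at 16.71 to 33.32 TPM there. Sostdc1 in back skin was higher than in both Tfr libraries, and Tox2 in medulla oblongata was above the Tfr MUT library. Basophils held 6.17 TPM of Bcl6 and 4.37 TPM of Maf.

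The genes most like each member were taken over the 9 CD4 T libraries by Pearson's r of log2(TPM + 1), as a description, since these libraries include pairs of the same population. Sostdc1 was most like Ispd (r = 0.993), Il21 (0.993) and Ascl2 (0.979), and Il21 was most like Ispd (0.996). Cxcr5 and Tox2 were nearest each other among members (r = 0.993), and Cxcr5 was likewise near Caskin2 (0.993). Maf was most like Slc9a7 (r = 0.993), Tox most like Coq8a (0.984) and Bcl6 most like Nit1 (0.987). Over all 22 libraries, Sostdc1 and Ascl2 were each other's nearest (r = 0.97), and Cxcr5 was nearest the B-cell factor gene Pou2f2 and Tsen54 (both 0.943).

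The RefSeq promoter table holds windows for Bcl6, Ascl2, Tox2 and Il21 among the 8 genes, and the 250 bases before the start site are shown because Ascl2, Tox2 and Il21 rose together in Tfh cells and Bcl6 sets the fate. They lie on GRCm38.p6 at chr16:23988853-23989102 (minus strand) for Bcl6, chr7:142969265-142969514 (minus) for Ascl2, chr2:163225204-163225453 (plus) for Tox2 and chr3:37232637-37232886 (minus) for Il21, each being the window nearest a start of a transcript that the deposited tables count. The Tox2 window precedes a start site inside the gene. Capitals mark exact matches, on either strand, to the NFAT core GGAAA, the STAT or BCL6 core TTCNNNGAA, the MAF core TGCTGA and the TCF core CTTTGA.
Bcl6: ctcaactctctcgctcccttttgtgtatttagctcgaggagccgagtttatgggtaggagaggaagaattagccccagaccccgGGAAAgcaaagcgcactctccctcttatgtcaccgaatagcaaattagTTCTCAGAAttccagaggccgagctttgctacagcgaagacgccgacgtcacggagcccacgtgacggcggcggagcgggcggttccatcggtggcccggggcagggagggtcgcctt
Ascl2: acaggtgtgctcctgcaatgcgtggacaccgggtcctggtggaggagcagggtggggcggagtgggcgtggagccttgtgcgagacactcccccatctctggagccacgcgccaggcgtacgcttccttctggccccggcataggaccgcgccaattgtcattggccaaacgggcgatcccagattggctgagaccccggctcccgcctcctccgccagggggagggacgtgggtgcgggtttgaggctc
Tox2: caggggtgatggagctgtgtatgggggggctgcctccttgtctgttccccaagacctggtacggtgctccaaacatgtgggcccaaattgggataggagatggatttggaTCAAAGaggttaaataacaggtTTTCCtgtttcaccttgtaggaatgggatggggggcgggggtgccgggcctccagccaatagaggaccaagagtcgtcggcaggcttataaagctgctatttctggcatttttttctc
Il21: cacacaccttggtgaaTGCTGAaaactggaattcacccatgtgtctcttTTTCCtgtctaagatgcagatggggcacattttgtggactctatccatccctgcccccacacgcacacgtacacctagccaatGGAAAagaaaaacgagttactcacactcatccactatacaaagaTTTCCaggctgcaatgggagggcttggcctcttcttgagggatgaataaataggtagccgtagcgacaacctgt
The Il21 window holds 3 NFAT cores, at -201, -118 and -74, and a MAF core at -234, counted by the first base relative to the start site. The Bcl6 window holds a STAT or BCL6 core at -118 and an NFAT core at -166, and the Tox2 window a TCF core at -140 and an NFAT core at -118. The Ascl2 window holds none of these, and none of the 4 windows holds the AP-1 motif TGANTCA. Of 32851 promoter windows of the same length, 55.6% hold the NFAT core, 7.02% the STAT or BCL6 core, 16.1% the MAF core, 13.8% the TCF core and 6.75% the AP-1 motif. A match describes the letters of the window and shows no binding.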

How the data were processed

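Poly(A) RNA was sequenced for 50 cycles, per the labels' protocols. CASAVA 1.8.2, STAR, RSEM, bedtools and mm10 are named in the submitters' processing notes, with order and settings not given in the sources used here. The authors deposited 1 table per library with the expected count and the TPM of each gene; their FPKM was not used. Of expected counts above 0, 86.1% were whole (tolerance 1e-09); all were rounded for edgeR and DESeq2. The 4237 genes that are not protein-coding were at 0 in all libraries.

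From these tables, quasi-likelihood F-tests of edgeR 4.0.16 (R 4.3.3; TMM scaling after filterByExpr, Benjamini-Hochberg over all genes tested, threshold 0.05) were fitted to the 8 libraries of Tfr, Tfh, non-Tfh and CD4+ cells with terms for population and MUT, for the Tfh MUT contrast with a further term, and to 9 T and 7 primary B libraries for lineage. The spread was shared over the libraries of a fit. The fits were also run on simulated data, with the outcome not reported here. Comparisons share libraries. Ascl2 and Sostdc1 passed the filter through the follicular libraries. Counts of calls that include them, and their p-values, in the comparisons with follicular cells are therefore a description. Il21 passed the filter of the lineage comparison through the T-cell libraries, so its call there is a description too. Alternatives tried were DESeq2 1.42.0, limma 3.58.1 on log2(TPM + 1), RLE scaling, no filter on low counts, no MUT term, ConA added, and each library left out. Depth was 30.8 M to 147.9 M expected counts, and counting intervals and floors (3 counts) cover counting error only. The members and gene lists were chosen with earlier results of these data known. Named genes were the 8 members, up to 4 called genes per list with the largest fold change, and the 3 genes most like each member over the 22 and over the 9 T libraries, of which those nearest are printed; some list genes that this rule names are not reported here. Chromatin data were not analysed here.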

Additional observations from a re-analysis of the deposited data

How the results depend on the processing

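Tfh vs CD4+ and Tfr vs CD4+ kept 8 of 8 members called under every setting run, and Tfh vs non-Tfh did under every setting but leaving out 1 library, where the count was 0 to 8. In Tfr vs Tfh, 1 member was called, against 3 with no filter, 5 with DESeq2, 3 with limma, 3 with no MUT term, 3 without both Tfh MUT and Tfr (chosen after seeing the data, for their B-cell markers) and 0 to 4 with 1 library left out. Leaving out 1 library gave 1 to 8 members in Tfr vs non-Tfh (7 with all), 1 to 6 in non-Tfh vs CD4+ (4 with all, 7 without both Tfh MUT and Tfr), 3 to 4 in CD4 T vs primary B (4 with all) and 0 to 2 for the MUT term of Tfh cells (0 with all, 1 with DESeq2). Without ConA, Il21 fell below the filter of the lineage comparison, and without ConA, splenic B and LPS+IL4 B (chosen after seeing the data) 4 members were called. The cause of these changes was not tested, beyond the fewer samples; a population left with 1 library is assumed to vary like the others.

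The sign turned in some settings for members that did not pass the test. Between Tfr and Tfh cells, Maf ranged from -0.33 to 0.06 and Tox from -0.34 to 0.3 with 1 library left out (Tox also 0.09 without Tfr), and Tox was 0.0 with limma. Between non-Tfh and CD4+ cells Bcl6 was 0.05 with limma and ranged from -0.18 to 0.06 with 1 library left out. For MUT vs unmarked, Il21 was 0.04 with DESeq2, and Sostdc1 was 0.07 and Tox 0.09 without both Tfh MUT and Tfr. With 1 library left out, Tox ranged from -0.13 to 0.11 and Tox2 from -0.44 to 0.09 (0.08 without non-Tfh MUT). In the MUT term of Tfh cells, Il21 was -0.57 with DESeq2 and Sostdc1 ranged from -0.29 to 0.7 with 1 library left out.

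The count of all genes called ranged over the other settings from 834 to 3221 in Tfh vs non-Tfh (860; DESeq2 2312), 3313 to 5484 in Tfh vs CD4+ (3453), 3792 to 6355 in Tfr vs CD4+ (3968), 51 to 1033 in Tfr vs Tfh (52; DESeq2 621), 1854 to 4938 in Tfr vs non-Tfh (1907), 406 to 3134 in non-Tfh vs CD4+ (503), 0 to 478 for MUT (0) and 25 to 1266 for the MUT term of Tfh cells (99). With 1 library left out it ranged from 0 to 3561 in Tfh vs non-Tfh, 772 to 5423 in Tfh vs CD4+, 1087 to 5841 in Tfr vs CD4+, 0 to 458 in Tfr vs Tfh, 80 to 4119 in Tfr vs non-Tfh, 31 to 1203 in non-Tfh vs CD4+, 0 to 29 for MUT and 5 to 2632 for the MUT term of Tfh cells. For ConA against in vivo activated cells, a minimum of 1 TPM in place of 10 gave 4 members lower in place of 3. No paired analysis was possible because each group is 1 library and the labels give no replicate numbers; the MUT term in the model takes the place of a block.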

Other observations

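Paralogs and partners of the members were a list of 17 genes. Of the 12 that passed the filter, Mafg, a small MAF protein that pairs with larger leucine-zipper factors, rose in Tfh relative to non-Tfh cells by 1.10 ± 0.16 (log2, SE, edgeR adjusted p = 0.0178) and the other 11 did not pass. Of all genes tested there, 4.03% rose and 2.56% fell, so the count is not read as a result about the list. The Mafg call did not hold in every fit that left out a library, where its log2 difference ranged from 1.07 to 1.13. Mafg stood at 43.44 and 45.67 TPM in Tfh MUT and Tfh, against 17.71 and 19.53 TPM in non-Tfh MUT and non-Tfh. Between Tfr and Tfh cells 0 of the 12 passed, where 0.291% of all genes tested fell and 0.107% rose. The BCL6 co-repressor gene Bcor stood between 68.87 and 94.83 TPM in the 8 sorted or total CD4 libraries. Il2 stood at 87.41 TPM in ConA cells, against at most 6.92 TPM in the other T-cell libraries. Tox3 and Sost, paralogs of members, and Cxcl13, the CXCR5 ligand gene, were at most 0.18 TPM in every T-cell library.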
